A study of Saccharomyces cerevisiae with 9 samples.

Results

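The genes described here are 31 of the 6942 features on tiled yeast arrays: 27 genes that make ergosterol, supply its electrons or turn it into esters, and 4 genes for transcription factors that control them. They were chosen by pathway role and locus name, with no measured value in the rule but with earlier results of these data known. All 31 had a value on all 9 arrays. They fall into 9 genes of the mevalonate route up to farnesyl diphosphate, 3 genes from squalene to lanosterol, 13 genes of the late route with its electron donors and scaffold, 2 genes of ester synthesis and 4 regulators.

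Haploid budding yeast of the BY4741 background was grown in rich medium (YPD) at 30°C and shocked with 0.7 M NaCl for 30 min. Both strains were treated alike, and in each the reference for the ratio was the same strain before stress. The ckb12 strain lacks CKB1 and CKB2, which encode the regulatory subunits of protein kinase CK2, and had 2 arrays. Wild type (WT), which carries the parental BY4741 markers and no further deletion, had 7 arrays. Each array gives, for each feature, the log2 ratio of NaCl-treated over unstressed signal, so a value of -1 is a halving. A set letter in the labels joins ckb12 replicate 1 to WT replicate 8 (set A) and ckb12 replicate 2 to WT replicate 9 (set B). The letters C, D and E belong to WT replicates 10, 11 and 12, while WT replicates 1 and 2 are unlettered.

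Ergosterol is the main sterol of yeast membranes, the fungal counterpart of cholesterol. Acetyl-CoA is built up through mevalonate to farnesyl diphosphate, joined to squalene, closed to lanosterol and then trimmed and desaturated in the endoplasmic reticulum. The route needs heme and oxygen. Upc2 and Ecm22 are zinc cluster activators that bind sterol response elements, Rox1 and Mot3 are repressors of hypoxic genes, and excess sterol is stored as esters made by Are1 and Are2.

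The arrays held between 6205 and 6812 values each, and 6129 features had a value on all 9. Array medians lay between -0.00118 and 0.00016, so every ratio is relative to the median feature of its array. The SD over features was 1.33 and 1.34 on the ckb12 arrays and between 1.22 and 1.41 on the WT arrays. Over the 31 genes, which are not independent, Pearson's r was 0.924 between both ckb12 arrays, 0.813 to 0.971 for the 14 pairs of a ckb12 and a WT array, and 0.869 to 0.976 for the 21 pairs of WT arrays. Signal intensities were not used, so no transcript level is known, and precision is limited by how many arrays there were. A ratio within a strain does not show whether the treated or the unstressed state differed between strains, and fewer cells and less RNA per cell cannot be told apart.

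The first comparison asked how the sterol genes of WT cells respond to salt. In WT, 25 of the 31 genes fell and 3 rose (limma, Benjamini-Hochberg adjusted p below 0.05), a total of 28 genes or 90.3%. Calls were common on these arrays, with 77.1% of all features called, so the number called says little by itself. The direction was less even: 80.6% of the sterol genes were called lower against 40.6% of all features, and 9.68% were called higher against 36.5% of all features. The median of the 31 WT means was -0.83, beside -0.04 for all 6129 features. A fall of at least 1 on the log2 scale was called for 10 of the 31 genes (32.3%), beside 16.2% of all features. The genes that rose were ARE2, ERG9 and MOT3, and the genes that passed in neither direction were HMG2, ERG26 and ERG28.

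**Figure D1:**
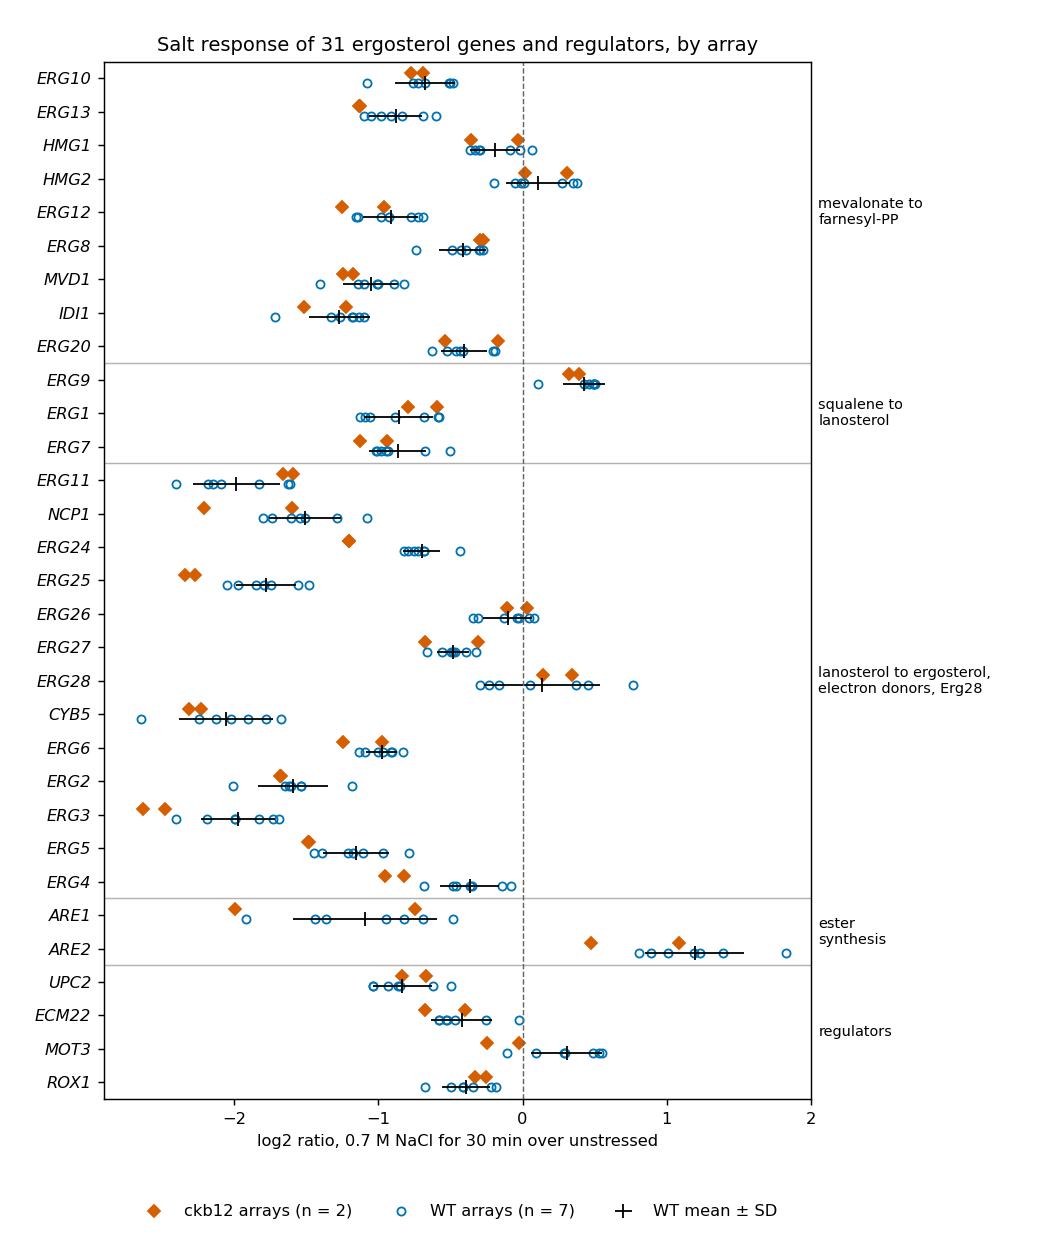
Log2 ratio of NaCl-treated over unstressed signal (x axis) for the 31 genes in pathway order (y axis), with diamonds for the 2 ckb12 arrays, open circles for the 7 WT arrays, and a tick and bar for the WT mean ± SD. Most points lie left of 0, the late genes CYB5, ERG11, ERG3 and ERG25 lie farthest left, and ARE2 stands alone on the far right.

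In the mevalonate route 8 of 9 genes were called lower in WT (88.9%, beside 40.6% of all features), with a median of -0.68. The entry enzymes fell moderately. ERG10 (YPL028W), acetoacetyl-CoA thiolase, averaged -0.68 ± 0.21, and ERG13 (YML126C), HMG-CoA synthase, averaged -0.88 ± 0.18 (SD, n = 7 WT arrays, as for all WT means). The reductase step, which sets the pace of the route and is made by HMG1 and HMG2, moved least and is taken up with the other gene pairs. Among the enzymes after mevalonate, ERG12 (YMR208W), mevalonate kinase, averaged -0.91 ± 0.19, and ERG8 (YMR220W), phosphomevalonate kinase, averaged -0.42 ± 0.16. MVD1 (YNR043W), which makes isopentenyl diphosphate by decarboxylation, averaged -1.05 ± 0.19. IDI1 (YPL117C), the isomerase of that product, was the lowest of this group at -1.27 ± 0.21, or 0.415 of the unstressed signal. ERG20 (YJL167W), farnesyl diphosphate synthase, at the point where sterols part from dolichol, ubiquinone and prenylation, averaged -0.41 ± 0.16.

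From squalene to lanosterol the first enzyme moved against the others. ERG9 (YHR190W), squalene synthase, the first step that leads only to sterols, had WT log2 ratios of 0.50, 0.49, 0.43, 0.50, 0.50, 0.10 and 0.46 in replicates 1, 2, 8, 9, 10, 11 and 12. Replicate 11 lay below a narrow band formed by the others, but all were above 0. The mean was 0.43 ± 0.14, 1.34 times the unstressed signal (adjusted p 0.000209, limma with Benjamini-Hochberg). ERG1 (YGR175C), squalene epoxidase, averaged -0.86 ± 0.24, and ERG7 (YHR072W), lanosterol synthase, averaged -0.87 ± 0.20.

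The late route held the deepest falls, with 11 of 13 genes called lower in WT (84.6%, beside 40.6% of all features) and a median of -1.15. Its 7 falls of at least 1 make up most of the 10 seen in the whole pathway. CYB5 (YNL111C), cytochrome b5, which passes electrons to the sterol desaturases, had WT log2 ratios from -2.65 in replicate 12, with a median of -2.02, to -1.67 in replicate 9. Every WT array was thus far below 0, and replicate 12 was the most extreme. The mean of -2.06 ± 0.32 corresponds to 0.24 of the unstressed signal (adjusted p 3.96e-08, limma with Benjamini-Hochberg). NCP1 (YHR042W), the cytochrome P450 reductase that serves Erg11 and Erg5, averaged -1.51 ± 0.25.

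ERG11 (YHR007C), the cytochrome P450 that demethylates lanosterol and the target of azole drugs, had WT log2 ratios between -2.40 in replicate 11 and -1.61 in replicate 9, with a median of -2.09. The least changed of the 7 were replicates 8 and 9, the WT partners of ckb12 in sets A and B, at -1.62 and -1.61. The mean was -1.98 ± 0.30, or 0.253 of the unstressed signal (adjusted p 3.4e-08, limma with Benjamini-Hochberg). ERG3 (YLR056W), the C-5 sterol desaturase, ranged from -2.40 to -1.69 with a median of -1.99. Its mean of -1.97 ± 0.25 was within the SD of that of ERG11. ERG25 (YGR060W), the C-4 methyl oxidase, ranged from -2.05 to -1.48 with a median of -1.79 and averaged -1.78 ± 0.21, or 0.292 of the unstressed signal. ERG2 (YMR202W), the sterol isomerase that acts before Erg3, ranged from -2.01 to -1.18 with a median of -1.61 and averaged -1.59 ± 0.24. The order of these means, CYB5, ERG11, ERG3, ERG25, ERG2 and NCP1, has steps smaller than the SD of the genes on either side. Within arrays, ERG3 was below ERG25 on every WT array, while the other neighbours changed order between arrays. These orders were not tested. On each WT array these 6 genes were at or below -1.08.

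The other late genes changed less. ERG5 (YMR015C), the C-22 desaturase and the second P450 of the route, averaged -1.15 ± 0.23, and ERG6 (YML008C), the methyltransferase that sets ergosterol apart from cholesterol, averaged -0.98 ± 0.11. ERG24 (YNL280C), the reductase that follows Erg11, averaged -0.70 ± 0.13, and ERG4 (YGL012W), the reductase of the last step, averaged -0.37 ± 0.21. The C-4 demethylation complex was uneven. Beside ERG25 at -1.78, its decarboxylase ERG26 (YGL001C) averaged -0.10 ± 0.17, its ketoreductase ERG27 (YLR100W) averaged -0.48 ± 0.11, and its scaffold ERG28 (YER044C) averaged 0.13 ± 0.40. ERG27 was called lower, whereas ERG26 (adjusted p 0.215) and ERG28 (adjusted p 0.36) were not called by limma with Benjamini-Hochberg adjustment. ERG28 had both signs among WT arrays, at -0.30, 0.05, 0.45, 0.76, 0.37, -0.23 and -0.16 in replicates 1, 2, 8, 9, 10, 11 and 12. Its SD was larger than that of 84.5% of all features.

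**Figure D2:**
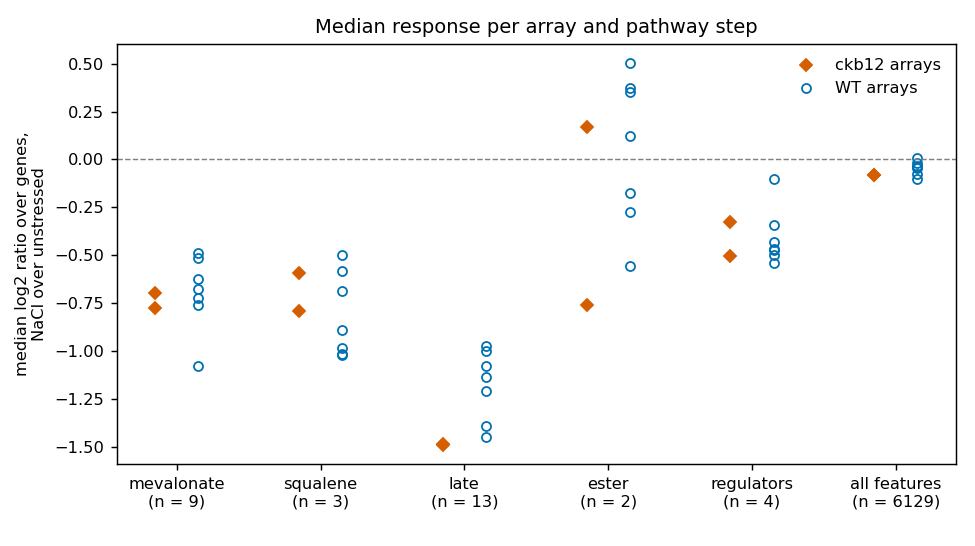
Median log2 ratio of NaCl-treated over unstressed signal (y axis) over the genes of each pathway step on each array (x axis: steps with their number of genes, and all 6129 features), with diamonds for ckb12 and open circles for WT arrays. The late genes had medians of -1.49 and -1.48 on the ckb12 arrays and between -1.45 and -0.97 on the WT arrays, the lowest of the steps on most arrays.

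Pairs of related genes that share a reaction or a binding site were compared within each WT array, as the difference of their log2 ratios, in 3 comparisons. All 3 differences had the same sign on all 7 WT arrays. An exact 2-sided permutation test over sign flips gave p = 0.0156 for each, the smallest value 7 arrays allow. The Benjamini-Hochberg value over the 3 pairs was also 0.0156. How many other gene pairs keep the same sign on all 7 arrays was not counted, so the result is not shown to be particular to these pairs.

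ARE1 and ARE2 encode the acyltransferases that esterify sterols, and they moved in opposite directions. ARE2 (YNR019W), the main enzyme of aerobic cells, had log2 ratios of 1.08 and 0.47 in ckb12, against 1.39, 1.19, 1.23, 1.01, 0.80, 0.89 and 1.83 in WT. ARE1 (YCR048W) had log2 ratios of -0.75 and -1.99 in ckb12, against -0.69, -0.95, -0.48, -1.36, -1.91, -1.44 and -0.82 in WT. ARE2 lay above 0 and ARE1 below 0 on all 9 arrays, but the depth of the ARE1 fall differed widely between cultures of 1 strain. In WT the mean was 1.19 ± 0.35 for ARE2, 2.28 times the unstressed signal, and -1.09 ± 0.50 for ARE1, 0.469 of it. Both passed (limma with Benjamini-Hochberg), ARE2 at an adjusted p of 4.27e-06 and ARE1 at 8.95e-05. The SD of ARE1 was larger than that of 92.2% of all features. ARE2 exceeded ARE1 by 1.83 and 2.47 in ckb12 and by 2.28 ± 0.35 in WT (SD, n = 7), with a WT range of 1.71 to 2.72. ARE1 overlaps YCR050C, which the annotation lists as protein coding and which was not among the features with a value on all 9 arrays.

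The reductase genes differed in a smaller way. HMG1 (YML075C), the main HMG-CoA reductase in the presence of oxygen, had log2 ratios of -0.03 and -0.35 in ckb12, against -0.29, -0.37, -0.02, -0.09, -0.33, -0.30 and 0.06 in WT. HMG2 (YLR450W), whose protein is degraded when the pathway is well supplied, had log2 ratios of 0.31 and 0.02 in ckb12, against -0.20, -0.05, 0.28, 0.35, -0.01, 0.01 and 0.37 in WT. Both genes scattered around small values, and the strains overlapped for each. HMG1 averaged -0.19 ± 0.17 in WT and was called lower at an adjusted p of 0.0372, whereas HMG2 averaged 0.11 ± 0.22 at 0.271 (limma, Benjamini-Hochberg). The HMG1 call was lost under median centring (adjusted p 0.111) and without WT replicate 1, 2, 10 or 11 (adjusted p between 0.086 and 0.0974, limma with Benjamini-Hochberg). HMG2 exceeded HMG1 by 0.34 and 0.37 in ckb12 and by 0.30 ± 0.10 in WT.

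**Figure D3:**
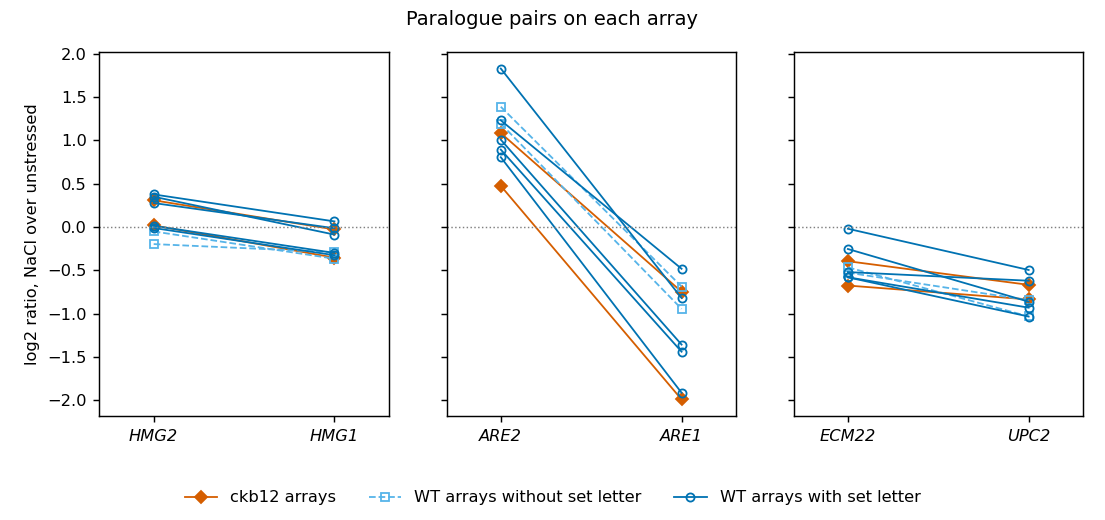
Log2 ratio of NaCl-treated over unstressed signal (y axis) for the genes of each pair (x axis), with a line for each array: diamonds for ckb12, squares with broken lines for WT arrays without a set letter, and circles for WT arrays with one. Every line falls from left to right, and the ARE2 to ARE1 lines cross 0.

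All 4 regulator genes were called in WT, 3 lower and 1 higher. Of all features 77.1% were called, 40.6% lower and 36.5% higher, so the count says little by itself. UPC2 (YDR213W) had log2 ratios of -0.67 and -0.84 in ckb12, against -0.85, -1.03, -0.93, -1.03, -0.86, -0.62 and -0.50 in WT. ECM22 (YLR228C) had log2 ratios of -0.40 and -0.68 in ckb12, against -0.53, -0.47, -0.58, -0.58, -0.26, -0.52 and -0.02 in WT. Both activator genes were below 0 on all 9 arrays, with ckb12 inside the WT range for UPC2 and 1 ckb12 array below it for ECM22. The WT means were -0.83 ± 0.20 for UPC2 and -0.42 ± 0.21 for ECM22. ECM22 exceeded UPC2 by 0.27 and 0.16 in ckb12 and by 0.41 ± 0.17 in WT.

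The repressor genes went in different directions in WT. MOT3 (YMR070W) had log2 ratios of -0.02 and -0.24 in ckb12, against 0.55, 0.53, 0.09, -0.11, 0.29, 0.30 and 0.49 in WT. The lowest of the 7 were again the WT partners of sets A and B, at 0.09 and -0.11, which lay nearest to ckb12. MOT3 averaged 0.31 ± 0.25 in WT and was called higher (adjusted p 0.01, limma with Benjamini-Hochberg), but over the 5 set-lettered arrays alone it averaged 0.21 and did not pass (adjusted p 0.0853). ROX1 (YPR065W) had log2 ratios of -0.25 and -0.33 in ckb12, against -0.41, -0.22, -0.42, -0.50, -0.68, -0.34 and -0.18 in WT. It was below 0 on all 9 arrays, averaged -0.39 ± 0.17 in WT and was called lower (adjusted p 0.00061, limma with Benjamini-Hochberg).

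The set letter is the only batch in the labels, so lettered WT arrays were set against unlettered ones. None of the 31 genes passed (limma, Benjamini-Hochberg), beside 0.457% of all features. Estimates lay between -0.39 and 0.36, and with 5 against 2 arrays differences of this size are not excluded. At an unadjusted p below 0.05 there was 1 gene (3.23%), ERG5, with a difference of -0.39 for lettered minus unlettered arrays (adjusted p 0.312). The share of all features at that cut was not counted, so ERG5 is not shown to stand out.

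In ckb12 the response had the same outline. Of the 31 genes 24 were called, 22 lower and 2 higher, beside 63.0% of all features called, 35.7% lower and 27.4% higher (limma with the spread shared over 9 arrays, Benjamini-Hochberg). The genes called higher were ARE2 and ERG9. The 7 genes not called were HMG1, HMG2, ERG8, ERG26, ERG28, MOT3 and ROX1. A fall of at least 1 was called for 15 genes in ckb12 (48.4%, beside 19.2% of all features), against 10 in WT (32.3%, beside 16.2% of all features). The genes past that line only in ckb12 were ERG13, ERG12, ERG7, ERG6 and ERG24. Their WT means were -0.88, -0.91, -0.87, -0.98 and -0.70, against -1.13, -1.11, -1.03, -1.11 and -1.20 in ckb12. None of them was called between strains in the paired or the 9-array fit of all features, so the counts do not show a deeper fall. The lowest ckb12 means were those of ERG3 at -2.55, ERG25 at -2.30, CYB5 at -2.27, NCP1 at -1.90 and ERG2 at -1.68.

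The second comparison asked whether loss of the CK2 regulatory subunits changes this response. In the paired comparison of sets A and B, none of the 31 genes passed (limma with set as a block, Benjamini-Hochberg), where 0.0152% of all 6600 features did, and with 1 residual degree of freedom the lowest adjusted p among the genes was 0.156. At an unadjusted p below 0.05 there were 7 genes, all lower in ckb12: ERG3, ERG4, ERG24, ERG25, CYB5, NCP1 and ARE1. They make up 22.6% of the genes, beside 10.5% of all features with such a lower value. Against all 7 WT arrays without a block, none passed either, beside 1.14% of all features, and the lowest adjusted p was 0.0968, for ERG24 (limma, Benjamini-Hochberg). At an unadjusted p below 0.05 there were 5 genes in that fit, all lower in ckb12 (ERG24, ERG25, ERG4, ERG3 and MOT3), which is 16.1%, beside 10.7% of all features.

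The ckb12 value was below that of its paired WT array in both sets for 21 of the 31 genes (67.7%), beside 38.3% of all features. These 21 included 9 of the 13 late genes and 6 of the 9 mevalonate genes, but 1 of the 4 regulators. UPC2 and ROX1 were higher in ckb12 in both sets. The median paired difference was -0.19 over the 31 genes and -0.37 over the late genes, beside -0.05 over all features. The share of negative paired differences depended on scaling, with 25 genes negative as deposited, 23 after scaling to an equal median absolute deviation, 22 after median centring and 20 after quantile normalization. In the same order, the median over all features was -0.047, -0.053, -0.029 and -0.008. The share of all features with a negative difference was not counted, so these counts have no background beside them.

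Both ckb12 arrays lay below every WT array for 6 genes (19.4%), beside 12% of all features (738 of 6129), and above every WT array for none, beside 5.32% of all features. Of the 6, 5 are late genes. ERG3 had log2 ratios of -2.48 and -2.63 in ckb12, against -2.40 to -1.69 in WT, and differed by -0.58 ± 0.19 from 7 WT arrays (limma estimate ± SE). ERG24 had -1.20 on both ckb12 arrays, against -0.72, -0.75, -0.69, -0.43, -0.79, -0.82 and -0.68 in WT, and differed by -0.50 ± 0.13. The gap to the nearest WT array was thus narrow for ERG3 and wide for ERG24.

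ERG4, the last reductase, had log2 ratios of -0.95 and -0.82 in ckb12, against -0.46, -0.35, -0.37, -0.14, -0.48, -0.68 and -0.08 in WT, and differed by -0.52 ± 0.16. ERG25 had -2.27 and -2.34 in ckb12, against -2.05 to -1.48 in WT, and differed by -0.52 ± 0.16. In sets A and B taken singly, the differences were -0.48 and -0.81 for ERG3, -0.52 and -0.77 for ERG24, -0.58 and -0.68 for ERG4, and -0.52 and -0.55 for ERG25. ERG5 had -1.49 and -1.48 in ckb12, against -1.45 to -0.79 in WT, and ERG13 had -1.13 on both ckb12 arrays, against -1.10 to -0.60 in WT. For ERG5 and ERG13 the lowest WT array lay close to ckb12, and after scaling to an equal median absolute deviation both overlapped WT, which left 4 genes apart (12.9%, beside 10.1% of all features). Quantile normalization left ERG24, ERG25 and ERG4 apart (9.68%, beside 7.37% of all features).

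Some of these genes crossed the threshold under other rules. With ORF-style features only, which are 6356 of the 6600, the paired comparison called ERG4, ERG24 and ERG3 lower in ckb12. Their adjusted p-values were 0.0259, 0.0261 and 0.0278 (limma with Benjamini-Hochberg). Of all such features 5.79% (368) were called lower, where the fit of all 6600 features called 1 in either direction. The rise in calls was thus not particular to these genes, whose estimated differences were the same in both fits. With the same features and no block, none of the 31 genes passed, with adjusted p-values for ERG4, ERG24 and ERG3 of 0.115, 0.112 and 0.106 on the 4 arrays and of 0.147, 0.0874 and 0.152 on 9 arrays (limma with Benjamini-Hochberg). A rule of both ckb12 arrays below the WT mean by over 2 SD held for ERG4, ERG24 and ERG25, beside 5.53% of all features. The spread of ratios over features was larger on both ckb12 arrays than on every WT array but replicate 12, and scalings that even out the spread made the differences of ERG3, ERG4, ERG24 and ERG25 smaller. With an equal median absolute deviation the paired difference was -0.46 for ERG3, against -0.65 as deposited, and -0.36 for ERG25, against -0.53 as deposited. Quantile normalization gave -0.37 for ERG3 against 7 WT arrays, compared with -0.58 as deposited. These 4 genes kept their sign under both scalings.

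**Figure D4:**
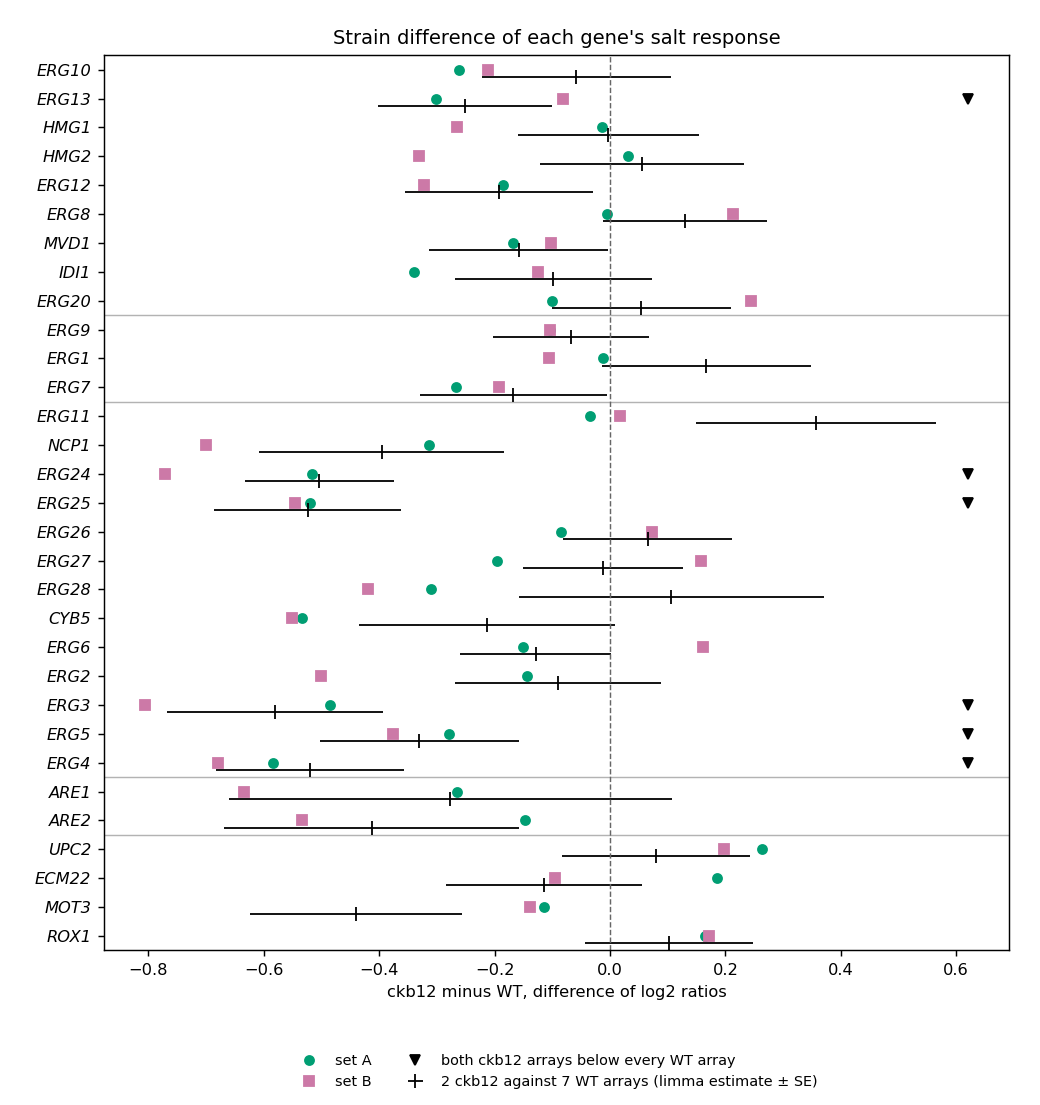
Difference of the log2 ratios, ckb12 minus WT (x axis), for the 31 genes in pathway order (y axis), as circles for set A, squares for set B, and a tick and bar for the limma estimate ± SE of 2 ckb12 against 7 WT arrays. Triangles on the right mark the 6 genes whose ckb12 arrays both lie below every WT array, among them ERG24, ERG25, ERG3 and ERG4.

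Some differences turned on which WT arrays stood beside ckb12. ERG11 had log2 ratios of -1.66 and -1.59 in ckb12. It differed by -0.04 (set A) and 0.02 (set B) from the paired WT arrays but by 0.36 from the mean of 7 WT arrays. CYB5 had log2 ratios of -2.31 and -2.22 in ckb12 and differed by -0.53 and -0.55 within the sets but by -0.21 from 7 WT arrays. MOT3 differed by -0.11 and -0.14 within the sets and by -0.44 from 7 WT arrays. ERG28 had 0.14 and 0.34 in ckb12, below its paired WT arrays at 0.45 and 0.76, whereas it differed by 0.11 from the mean of 7 WT arrays. The deleted genes had log2 ratios in ckb12 of 0.97 and 0.44 for CKB1 and of 0.82 and 0.71 for CKB2, against WT means of -0.60 and -0.18. The highest WT values were -0.38 for CKB1 and 0.10 for CKB2. Both genes differed from 7 WT arrays (adjusted p 0.0164 and 0.0206), but neither passed in the paired comparison (adjusted p 0.113 and 0.119, limma with Benjamini-Hochberg). A ratio of ckb12 to itself gives no level, so these values separate the strains without showing the deletion.

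Genes around the pathway were read as 3 lists chosen from background knowledge, but with earlier results of these data known. Their shares beside those of all features are therefore description only. Of 26 genes for sterol traffic, ester breakdown and control of HMG-CoA reductase, 10 rose (38.5%) and 11 fell (42.3%) in WT, near the 36.5% and 40.6% of all features, with a median of -0.04 beside -0.04 for all features. ATF2 (YGR177C), which acetylates sterols, was the lowest at -2.13 ± 0.11, and the importers' activator SUT1 (YGL162W) averaged -0.90 ± 0.27. Of the genes that act on the stability of HMG-CoA reductase, NSG2 (YNL156C), HRD1 (YOL013C) and HRD3 (YLR207W) rose. Their means were 1.19 ± 0.11, 0.89 ± 0.19 and 0.31 ± 0.10, whereas NSG1 (YHR133C) averaged -0.56 ± 0.13. The hydrolases of steryl esters were split. TGL1 (YKL140W) averaged 0.71 ± 0.21 and YEH2 (YLR020C) averaged -0.55 ± 0.13 in WT, whereas YEH1 (YLL012W) had log2 ratios of -1.76 and -2.18 in ckb12, against -1.15 to -0.72 in WT. YEH1 was the 1 gene of this list called between strains against 7 WT arrays, by -1.05 (adjusted p 0.0201, limma with Benjamini-Hochberg), and in the paired comparison its adjusted p was 0.111.

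Of 15 measured genes for other branches from farnesyl diphosphate and for heme synthesis, 5 rose (33.3%) and 6 fell (40%) in WT, near the 36.5% and 40.6% of all features, with a median of -0.07. COQ1 (YBR003W), which starts the ubiquinone tail, averaged 0.83 ± 0.19, and RER2 (YBR002C), which starts dolichol, averaged -1.02 ± 0.15. HEM13 (YDR044W), the oxygen-dependent heme enzyme that Rox1 represses, averaged -1.15 ± 0.31, and HEM15 (YOR176W), ferrochelatase, averaged 0.69 ± 0.17. No gene of this list was called between strains in either fit, with 2 at an unadjusted p below 0.05 in each (limma).

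Of 15 hypoxic genes and genes for their regulators, 5 rose (33.3%) and 9 fell (60%) in WT, beside 36.5% and 40.6% of all features, with a median of -0.74. OLE1 (YGL055W), the fatty acid desaturase that also draws electrons from a cytochrome b5 domain, had log2 ratios of -0.58 and -0.96 in ckb12, against -3.37 to -1.72 in WT. AAC3 (YBR085W), the hypoxic ADP/ATP carrier, had -1.42 and -1.49 in ckb12, against -2.87 to -2.13 in WT, and DAN1 (YJR150C), a hypoxic cell wall protein, had -0.05 and -0.51 in ckb12, against -2.43 to -1.44 in WT. For these 3 of the 15 genes both ckb12 arrays lay above every WT array (20%, beside 5.32% of all features), and for the other 12 the strains overlapped. Against 7 WT arrays AAC3 and DAN1 differed by 0.95 and 1.56 (adjusted p 0.0397 and 0.0233, limma with Benjamini-Hochberg), and OLE1 by 1.48 (adjusted p 0.105). The OLE1 difference was 0.97 in the paired comparison, and lettered WT arrays exceeded unlettered ones by 1.18 (adjusted p 0.0515, limma with Benjamini-Hochberg). In the paired comparison none of the 3 passed, with adjusted p-values of 0.119, 0.0768 and 0.119 for AAC3, DAN1 and OLE1. COX5B (YIL111W), also a Rox1 target, averaged 1.78 on both strains' arrays, with an SD of 0.61 in WT. Its WT values ran from 1.26 to 2.94, with the unlettered replicates 1 and 2 highest at 2.19 and 2.94. Lettered WT arrays differed from unlettered ones by -1.09 (adjusted p 0.125, limma with Benjamini-Hochberg), and the paired strain difference was 0.22. The corepressor genes TUP1 (YCR084C) and CYC8 (YBR112C) averaged -0.74 ± 0.37 and -0.53 ± 0.24 in WT.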

How the data were processed

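The authors labelled cDNA of NaCl-treated and unstressed cells, hybridized both to a tiled NimbleGen array in different colours and normalized the result, and the deposited values are log2 ratios, 1 per feature and array. Log base and direction (treated over unstressed) are not written in the table and were taken from the study's methods and the labels. Background correction and genome build are not given in the sources used here, so no coordinates are given. The labels give every array the same dye orientation, while the methods speak of dye swaps on some samples. WT replicate 12 has the word mutant in 1 label field and was kept as WT from its title and genotype. The sources used here do not say that the ckb12 replicates were separate cultures, so p-values measure the spread between these arrays, which may be technical. All columns were used (0 left out).

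Each fit took the features with no missing value, run in R 4.3.3 with limma 3.58.1, with Benjamini-Hochberg adjustment over all of them and calls at an adjusted p below 0.05. The ckb12 response and the unblocked strain difference used 9 arrays, and the paired difference only 4, joined by set letter A or B. As a check, array deviations from the strain mean correlated at -0.0433 within sets over features, and the random-block correlation was 0.177. Gene pairs were compared by an exact sign-flip permutation test.

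All 31 genes, whose symbols matched a RefSeq R64 table, are named with a mean. Array values or ranges are given for the 5 lowest and 3 highest WT means, the gene pairs, MOT3, ROX1 and genes whose ckb12 arrays both lie outside the WT range. Genes named from the lists, and ERG28 and CYB5 in the strain comparison, were singled out after their values were seen. The members and lists were chosen with earlier results of these data known. Fits were tested on simulated data. Alternatives were 3 scalings, other feature sets, variance models and blocks, a minimum change of 1, a rule of 2 SD, and leaving out arrays. A planned promoter motif search was not run.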

Additional observations from a re-analysis of the deposited data

Results flagged for a closer look

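In 3 of the 31 genes 1 WT array stood apart from the other WT arrays, by a gap to its nearest neighbour above Dixon's limit for 7 arrays, which chance passes in about 1 of 20 groups. ERG9 was at 0.10 in WT replicate 11, with the next array at 0.43. IDI1 was at -1.71 in WT replicate 12, with the next array at -1.33. ERG24 was at -0.43 in WT replicate 9, with the next array at -0.68. Replicate 9 is the WT array paired with ckb12 replicate 2 in set B, where ERG24 differed between strains by -0.77, beside -0.52 in set A.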

How the results depend on the processing

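The WT count of 28 called genes stayed between 24 and 31 under other scalings, feature sets, variance models, a Storey-type q value and subsets of arrays, and between 27 and 28 when single arrays were left out. A minimum log2 change of 1 reduced it to 11, 1 higher and 10 lower, and the ckb12 count of 24 to 15, all lower. Leaving out either ckb12 array gave 20 calls in ckb12, where the lone array is assumed to vary like the others. The paired strain comparison, which has 1 residual degree of freedom and called 1 of 6600 features, had 0 calls among the 31 genes, so its count says nothing about stability. There were also 0 with no replicate block on 4 or on 9 arrays, with a random block, under 3 scalings and with robust eBayes. With ORF-style features only there were 3, but 0 when the replicate block was left out (on the same 4 arrays, chosen after seeing the data, or on 9), and there were 3 under the rule of WT mean minus 2 SD. The strain fit of 9 arrays and the comparison of lettered with unlettered arrays had 0 calls whichever array was left out. With all features the block changed no call among the 31 genes. YEH1, AAC3 and DAN1 of the other lists passed against 7 WT arrays with no block, but not in the paired comparison. For these genes the fits differ in both block and arrays, so the part played by the block was not tested.

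Over the 5 set-lettered arrays the pair differences were 0.33 for HMG2 minus HMG1, 2.36 for ARE2 minus ARE1 and 0.40 for ECM22 minus UPC2, with an exact permutation p of 0.0625, the smallest that 5 arrays allow. Leaving out single arrays gave 0.27 to 0.33, 2.21 to 2.38 and 0.38 to 0.46. With WT replicates 1 and 2 alone, HMG2 and ERG28 turned to -0.13 and -0.12, and ERG8, ERG20, ROX1 and HMG1 lost their calls. The paired difference of ERG11, -0.0086, turned to 0.36 against 7 WT arrays, 0.29 with a random block, 0.0099 after median centring, 0.11 after quantile normalization and 0.13 after equal scaling of the deviation, and the cause was not tested. No signal over background was at hand, so dim features could not be weighed.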
